A study of Mus musculus with 45 samples.

Results

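The transcripts followed here are 9 genes of the AP-1 family and its close relatives, grouped here as AP-1 immediate early genes, namely Fos, Fosb, Fosl1, Fosl2, Jun, Junb, Jund, Atf3 and Maff. They were taken by gene symbol from raw read counts of mouse liver, where they make up 9 of 23227 genes. Of these, 8 had enough reads to be tested among 14067 tested genes, and Fosl1 did not. The mice were wild type C57BL/6J, all 24 weeks old and fasted overnight before the liver was taken. In 45 polyA RNA libraries they fell into 14 groups of 3, except 1 group of 6. Mice on a 16-week high-fat diet (HFD), begun at 8 weeks of age, or on chow received 1 U/kg insulin into the peritoneum and were killed 15, 30, 60 or 120 min later, and the group of 6 was taken at 30 min on the 16-week HFD. Mice without insulin, called basal, came from the 16-week HFD, from a 6-week HFD begun at 18 weeks of age and from chow. On each of these 3 diets another group drank metformin, at 270 mg per kg of lean body mass per day. The labels do not say whether basal mice had a sham injection, and HFD duration cannot be told apart from the age at which the HFD began. The series' design gives at least 3 mice for each group and time, and since a liver is taken once, each time stands for different mice.

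AP-1 is a dimer of basic leucine zipper (bZIP) proteins, most often a Fos protein with a Jun protein, that binds short palindromic DNA sites. Growth factors and insulin act through kinases on transcription factors that already sit at immediate early genes such as Fos and Jun. Transcription of such genes starts within minutes and needs no new protein, and their mRNAs are short-lived. In liver, Jun is known for its part in hepatocyte proliferation and regeneration, Atf3 for responses to stress, and the small Maf protein Maff for pairing with NF-E2-related factors.

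The libraries held 18.2 to 50.3 M counted reads each. The hepatocyte genes Alb, Apoa1, Ttr, Serpina1a, Fgb and Cps1 were detected in every group, at a summed level of 65710 to 147300 CPM, the reads of a gene scaled to a common library size. The 6 libraries at 30 min on the 16-week HFD were of 2 kinds: in replicates 1 to 3 the deviation of genes from the mean of all libraries rose with their GC content (Spearman correlation across genes 0.19 to 0.22), and in replicates 4 to 6 it fell (-0.22 to -0.14). Jun, Junb, Jund, Atf3 and Maff were each higher in all of replicates 1 to 3 than in any of replicates 4 to 6. The share of all tested genes that were apart in this way was not counted, so this is not read as particular to these genes. In basal libraries this correlation was 0.17 to 0.32 on the 16-week HFD and -0.30 to -0.08 on chow, and its part in the diet differences is measured only by the alternative that removes the trends. The reads come from whole liver, so a change in RNA per cell cannot be told apart from a change in the number of cells that hold it.

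The sequences just upstream of 5 of these genes are shown, each called in an insulin or diet comparison. Jund and Fosb were also called in such comparisons and are not shown. They are the 250 bases before the annotated start, from RefSeq on GRCm38.p6, written 5′ to 3′ on the gene's own strand. The promoter table held 8 of the 9 genes. Capitals mark a cyclic AMP response element (CRE, TGACGTCA, or TGACNTCA with any base in its middle), its core TGACG or the reverse complement CGTCA, the AP-1 site TGANTCA, and the TATA box TATAAA. All were searched on both strands. A full CRE also holds this core on each strand and is marked once. Fos lies at chr12:85473640-85473889 on the plus strand, Jun at chr4:95052223-95052472 and Junb at chr8:84978749-84978998 on the minus strand, Atf3 at chr1:191183334-191183583 on the minus strand, and the second of 3 Maff starts at chr15:79347270-79347519 on the plus strand.
Fos: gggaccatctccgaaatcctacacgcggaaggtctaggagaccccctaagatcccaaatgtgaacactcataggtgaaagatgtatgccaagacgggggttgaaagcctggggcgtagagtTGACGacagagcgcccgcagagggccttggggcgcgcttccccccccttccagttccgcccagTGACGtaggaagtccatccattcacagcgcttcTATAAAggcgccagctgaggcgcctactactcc
Jun: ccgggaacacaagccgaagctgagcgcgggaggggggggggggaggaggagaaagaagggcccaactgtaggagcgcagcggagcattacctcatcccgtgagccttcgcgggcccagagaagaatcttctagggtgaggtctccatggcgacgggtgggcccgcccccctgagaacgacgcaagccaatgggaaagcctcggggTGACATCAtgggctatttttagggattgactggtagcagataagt
Junb: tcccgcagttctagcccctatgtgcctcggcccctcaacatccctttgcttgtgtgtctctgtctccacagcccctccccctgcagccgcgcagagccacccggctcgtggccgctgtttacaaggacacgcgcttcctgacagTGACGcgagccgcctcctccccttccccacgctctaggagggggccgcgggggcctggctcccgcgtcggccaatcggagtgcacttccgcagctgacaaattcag
Atf3: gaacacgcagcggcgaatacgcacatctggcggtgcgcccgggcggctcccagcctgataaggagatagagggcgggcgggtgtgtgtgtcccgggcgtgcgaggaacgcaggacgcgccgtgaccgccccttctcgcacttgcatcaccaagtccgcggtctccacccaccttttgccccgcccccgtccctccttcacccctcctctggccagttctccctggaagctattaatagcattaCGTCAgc
Maff: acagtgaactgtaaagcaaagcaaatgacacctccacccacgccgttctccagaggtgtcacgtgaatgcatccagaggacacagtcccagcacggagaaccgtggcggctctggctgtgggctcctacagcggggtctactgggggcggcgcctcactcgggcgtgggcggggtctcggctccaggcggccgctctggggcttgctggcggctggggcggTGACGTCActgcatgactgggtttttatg

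Distances here run from the first base of the motif to the start of transcription. Fos held TGACG 129 and 66 bases upstream and TATAAA 33 bases upstream. Jun held TGACATCA 45 bases upstream, Maff held TGACGTCA 29 bases upstream of its second start, Junb held TGACG 106 bases upstream and Atf3 held CGTCA 7 bases upstream. Of 32851 promoters in the same table and window, 17.8% held TGACG, 1.55% held TGACGTCA, 7.49% held TGACNTCA and 12.4% held TATAAA, each on either strand. Of the genes not shown, Fosb held TGACG 60 bases upstream, and Fosl2 and Jund held none of these letters. The first Maff start also held none of them, and the third held TGACATCA 45 bases and CGTCA 122 bases upstream. Neither TGANTCA, held by 6.75% of promoters, nor the CArG box bound by serum response factor, held by 1.47%, was found in this window of any of these genes.

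On mm9, the build of the counts, the gene models place Fos at chr12:86814851-86818219, Jun at chr4:94715727-94718913, Junb at chr8:87500808-87502647, Atf3 at chr1:192994176-193007212 and Maff at chr15:79178108-79189506. Jun, Junb and Jund have 1 exon, Maff has 3 and the other genes have 4. In chow livers without insulin, Jund was the most abundant of these transcripts per length, at 16.1 ± 1.79 CPM per kb of exon (SD, n = 3). It held 52.3% of the summed CPM per kb of the 9 genes. JunD is a Jun protein that many resting cells make. Junb followed at 6.85 ± 1.85 and Jun at 3.84 ± 0.62 CPM per kb, and the ranges of these 2 overlapped with neither each other nor Jund. Fosl2, a Fos relative, stood at 1.86 ± 0.35, Maff at 1.19 ± 0.09, Fos at 0.51 ± 0.24, Atf3 at 0.41 ± 0.12 and Fosb at 0.017 ± 0.0056 CPM per kb. Fosb had 1 to 4 reads in each chow basal library, and 398 reads in all 45. Fosl1 had 7 reads in all, with 39 libraries at 0 and no library above 2. A count of 0 allows up to 3 reads, or 0.0609 to 0.173 CPM depending on the library. Its exons share 1155 bases with Ccdc85b on the opposite strand, and the library kit kept no strand, so even these reads are uncertain. Reads of Jund are also uncertain, since 49.23% of its 40-base words are shared with the overlapping GENCODE gene Gm11175. For Jun and Junb this share was 6.13% and 6.16%, and for the other tested genes it was 0.

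**Figure D1:**
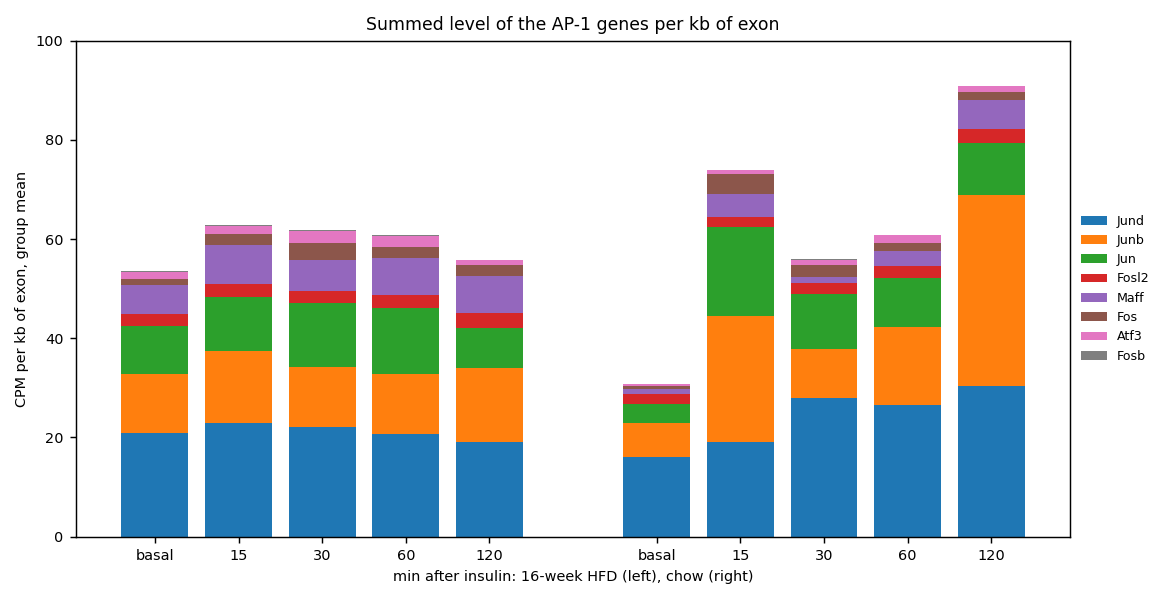
Stacked bars give the group mean of each gene in CPM per kb of exon, for 16-week HFD livers on the left and chow livers on the right, from basal to 120 min after insulin. The 16-week HFD sums lie between 53.57 and 62.85, and the chow sum is 90.98 at 120 min and 30.74 in basal livers.

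Within 15 min of insulin on chow, Fos, Jun, Junb and Maff rose. Fos, the founding partner of AP-1 dimers, had 3.95, 9.07 and 11.6 CPM at 15 min, against 0.473, 1.39 and 1.33 CPM in basal livers. Jun, its main partner, had 28.8, 41.9 and 101 CPM at 15 min and 10.6, 14.4 and 11.7 CPM in basal livers. All insulin libraries stood above all basal libraries for both genes, and replicate 3 at 15 min was the highest in each. Junb, a Jun protein with weaker activity as a homodimer, had 23.8, 55.4 and 61.7 CPM at 15 min, against 12.7, 9.19 and 16.0 CPM in basal livers. Maff, a small Maf protein that lacks an activation domain, had 8.81, 5.73 and 11.2 CPM at 15 min, against 2.16, 1.98 and 2.28 CPM in basal livers. Neither pair of groups overlapped.

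In edgeR's quasi-likelihood test with Benjamini-Hochberg adjustment, the log2 fold change at 15 min was 3.06 ± 0.59 (SE) for Fos (8.31-fold, adjusted p = 0.0049) and 2.23 ± 0.42 for Jun (4.70-fold, adjusted p = 0.00479). It was 2.00 ± 0.45 for Maff (adjusted p = 0.0182) and 1.90 ± 0.45 for Junb (3.73-fold, adjusted p = 0.026). These 4 of 8 tested genes were called, where 1.13% of all tested genes were called in this comparison. The median log2 fold change was 1.70 over the 8 genes and -0.003 over all tested genes. With Atf3, 5 of the 8 had groups that did not overlap, where 19.3% of all tested genes did. Atf3, a stress-induced repressor, had 1.29, 2.03 and 1.88 CPM at 15 min and 0.541, 0.961 and 0.902 CPM in basal livers, with an adjusted p of 0.491. Fosl2, Jund and Fosb did not pass either, at log2 fold changes of 0.14 for Fosl2, 0.24 for Jund and 1.496 for Fosb. Without chow 15 min replicate 3 none of the 4 passed, and they stood at 2.72 for Fos, 1.54 for Jun, 1.65 for Junb and 1.75 for Maff (adjusted p = 0.0584 to 0.169). Without chow basal replicate 1 the count was 1 and Fos stood at 2.60 (adjusted p = 0.0732), Junb at 1.90 (0.107) and Maff at 2.01 (0.0921). Without chow basal replicates 2 or 3 it was 2, since Junb (1.72 and 2.09) and Maff (1.95 and 2.04) were lost, and without chow 15 min replicate 2 only Junb was lost (1.77, adjusted p = 0.0888). Limma on the deposited normalized values called 3 of the 4 and not Junb (1.71, adjusted p = 0.0629). No list of markers for the other cell types of liver, or for pancreas and muscle, had a gene called at any insulin time on chow. The summed pancreatic acinar markers varied widely within groups. They ran from 281.1 to 1733 CPM in chow basal livers, 157.1 to 2677 CPM at 15 min and 19.15 to 2463 CPM at 120 min on chow. On the 16-week HFD they ran from 14.11 to 17890 CPM at 15 min and 7.265 to 7317 CPM at 30 min. Their part in the AP-1 levels was not tested.

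At 30 and 60 min on chow none of the 8 genes passed, where 0.0711% and 1.39% of all tested genes did. Of the 8, 5 at 30 min and 6 at 60 min had an unadjusted p below 0.05, where 7.46% and 12.8% of all tested genes had. DESeq2 called 1 at each time, Fos at 30 min (adjusted p = 0.0295) and Atf3 at 60 min (adjusted p = 0.0194), and limma on the deposited normalized values called 0 at 30 min and Atf3 at 60 min (adjusted p = 0.0427). Over all tested genes DESeq2 called 62 and 300 at these times, where edgeR called 10 and 195. Maff overlapped its basal libraries at 30 min, with 2.29, 2.31 and 2.18 CPM, against 2.16, 1.98 and 2.28 CPM in basal livers. Fos stayed above its basal range at 30 min, with 2.78, 5.93 and 6.12 CPM (log2 fold change 2.31 ± 0.60, adjusted p = 0.144). Jun had 23.6, 33.2 and 48.7 CPM at 30 min and 39.6, 24.1 and 31.5 CPM at 60 min, all above the basal libraries. Its log2 fold changes of 1.53 ± 0.42 and 1.38 ± 0.42 had adjusted p-values of 0.178 and 0.0949. Fosb, a Fos protein known for its delayed and lasting induction in nerve cells, was highest on chow at 30 min, with 1.17, 0.124 and 0.479 CPM from 3 to 29 reads. Its basal libraries held 0.0901, 0.0534 and 0.0531 CPM (log2 fold change 2.97 ± 0.82, adjusted p = 0.178). Atf3 at 60 min had 5.01, 1.97 and 1.97 CPM, and its log2 fold change of 1.94 ± 0.56 missed the threshold (adjusted p = 0.0714).

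At 120 min on chow Junb, Maff, Jun and Jund were higher than in basal livers. Junb had 30.3, 121 and 61.6 CPM at 120 min, against 12.7, 9.19 and 16.0 CPM in basal livers, and Maff had 9.86, 12.5 and 8.57 CPM, against 2.16, 1.98 and 2.28 CPM. Jun had 21.6, 47.4 and 31.7 CPM, against 10.6, 14.4 and 11.7 CPM, and Jund had 61.5, 103 and 97.6 CPM, against 49.7, 40.3 and 48.7 CPM in basal livers. The groups of all 4 genes were apart, and replicate 2 at 120 min was the highest for each of them. The log2 fold changes were 2.49 ± 0.46 for Junb (5.62-fold, adjusted p = 0.000784), 2.27 ± 0.45 for Maff (4.81-fold, adjusted p = 0.00176), 1.46 ± 0.42 for Jun (2.75-fold, adjusted p = 0.0317) and 0.91 ± 0.24 for Jund (1.89-fold, adjusted p = 0.0195). These were 4 of 8 genes, where 5.08% of all tested genes were called. Fos at 120 min had 2.77, 3.67 and 4.40 CPM, above each basal library, with a log2 fold change of 1.86 ± 0.60 (adjusted p = 0.0655). Fosl2 had 8.59, 26.6 and 14.6 CPM at 120 min, against 8.65, 11.6 and 12.5 CPM in basal livers, which overlapped. In all, 6 of the 8 had groups that did not overlap, where 26.7% of all tested genes did. Junb and Maff passed with any 1 library left out, at 1.86 to 2.86 and 2.11 to 2.38. Jun was lost without any 1 of the chow basal libraries or chow 120 min replicates 2 or 3 (1.13 to 1.59, adjusted p = 0.0791 to 0.202) and by limma on the deposited values (1.32, adjusted p = 0.0594). Jund was lost without chow 120 min replicates 2 or 3 or chow basal replicates 2 or 3 (0.78 to 0.95, adjusted p = 0.0518 to 0.122).

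The level at 120 min was also set against that at 30 min on chow, while the step between 15 and 30 min was not tested. Junb at 120 min, with 30.3, 121 and 61.6 CPM, stood above 30 min, with 14.1, 22.7 and 18.2 CPM (log2 fold change 1.95 ± 0.45, adjusted p = 0.0133). Junb at 60 min had 30.4, 24.9 and 31.3 CPM, above its 30 min libraries and overlapping those at 120 min. Maff stood above its 30 min level by 2.19 ± 0.45 (adjusted p = 0.00625). Those were 2 of 8 genes, where 1.62% of all tested genes were called, and the other 6 did not pass. Maff passed with any 1 library left out. Junb was lost without chow 30 min replicate 1 (1.79, adjusted p = 0.0895) or replicate 3 (1.95, adjusted p = 0.0759) or chow 120 min replicate 2 (1.32, adjusted p = 0.224), by limma on the deposited values (1.69, adjusted p = 0.0567) and with edgeR fitted to those 2 groups alone (1.94, adjusted p = 0.0702). The mix of the family moved with these times: Jund held 25.6% of the summed CPM per kb at 15 min and 33.3% at 120 min on chow, while Junb held 34.4% and 42.4%.

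**Figure D2:**
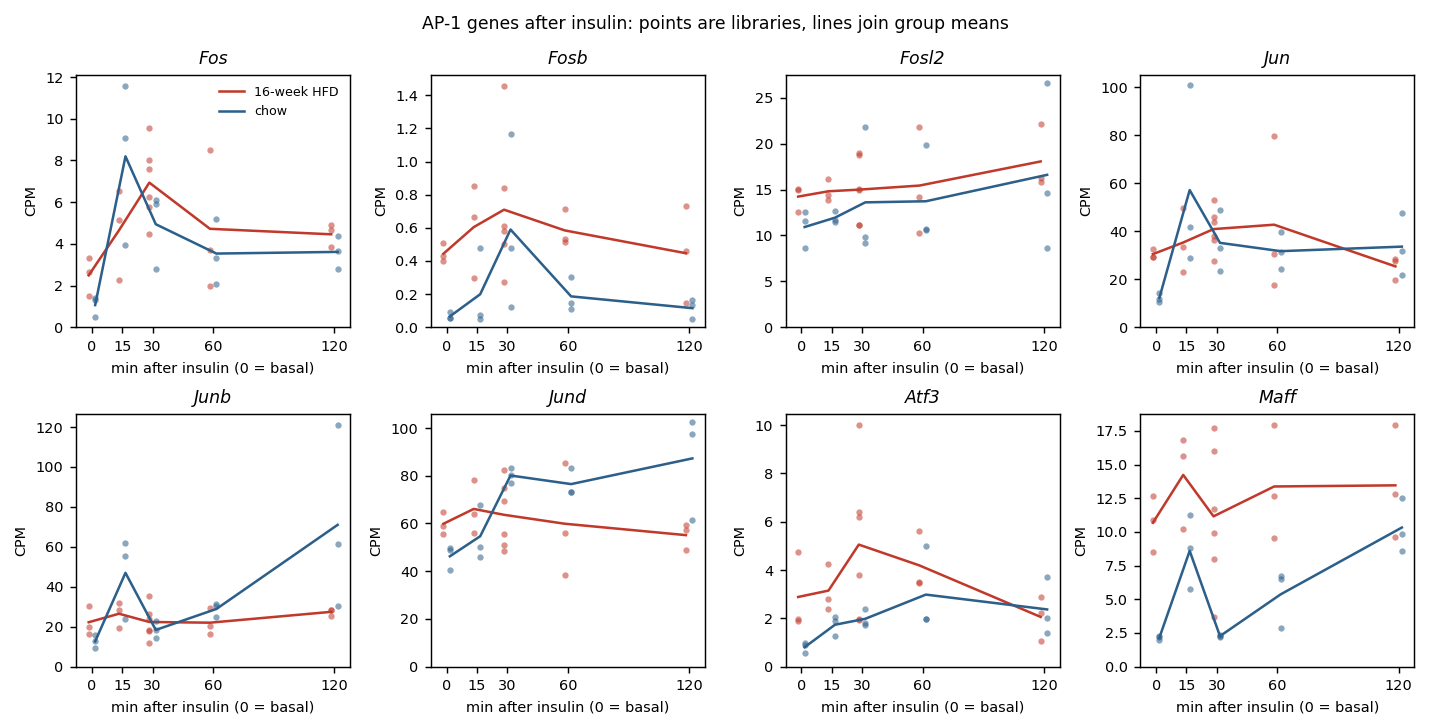
Each panel shows the CPM of 1 gene against minutes after insulin, with 0 for basal livers. Points are libraries of 16-week HFD mice (red) and chow mice (blue), set slightly apart, and lines join the group means. On chow Maff is near 2 CPM at 0 and 30 min and between 5.73 and 12.5 CPM at 15 and 120 min.

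On the 16-week HFD none of the 8 genes passed against the basal livers of that diet at any of the 4 times, where 0% of all tested genes were called at 15 min, 3.55% at 30 min, 0.00711% at 60 min and 0% at 120 min. At an unadjusted p below 0.05 there were 0, 1, 0 and 0 of the 8, where 5.27%, 23.1%, 7.33% and 8.36% of all tested genes were. DESeq2 called 0, 1, 0 and 0, and limma on the authors' deposited normalized values called 0 at each time. Over all tested genes DESeq2 called 4, 985, 21 and 9, where edgeR called 0, 500, 1 and 0. At 15 min Fos had 6.54, 5.17 and 2.24 CPM, against 1.52, 3.30 and 2.65 CPM in basal livers, which overlapped. Jun had 49.5, 22.9 and 33.6 CPM at 15 min, against 29.3, 29.3 and 32.8 CPM. Junb had 28.5, 31.6 and 19.3 CPM, against 20.0, 30.4 and 16.2 CPM, and Maff had 15.6, 16.8 and 10.2 CPM, against 12.7, 8.47 and 10.9 CPM in basal livers. All these pairs overlapped. The 95% intervals of their log2 fold changes ran from -0.20 to 1.99 for Fos, -0.60 to 1.03 for Jun, -0.63 to 1.13 for Junb and -0.40 to 1.24 for Maff, and these intervals do not exclude a rise of the size of the upper bounds.

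Fos at 30 min came nearest to the threshold on the 16-week HFD. Its 6 libraries had a lowest value of 4.49, a median of 6.91 and a highest of 9.56 CPM, all above the basal libraries at 1.52, 3.30 and 2.65 CPM. The log2 fold change was 1.47 ± 0.49 (adjusted p = 0.0729), and DESeq2 called it at adjusted p = 0.0423. Groups that do not overlap were found for 10.7% of all tested genes in this comparison. Atf3 at 30 min had 10.0, 6.21 and 6.42 CPM in replicates 1 to 3 and 3.81, 1.92 and 1.97 CPM in replicates 4 to 6, against 1.98, 1.90 and 4.76 CPM in basal livers. It did not pass with all 6 (0.81 ± 0.43, adjusted p = 0.259) and passed with replicates 1 to 3 alone (1.39, adjusted p = 0.0255) or with the replicate number as a block (1.47, adjusted p = 0.024). That block leaves replicates 4 to 6 without a basal partner, so it also rests on replicates 1 to 3 and is no separate support. At 60 min replicate 1 was the highest of its group for Fos, Jun, Junb, Jund, Fosl2, Atf3 and Maff, with Jun at 79.8, 30.7 and 17.7 CPM. At 120 min Jun had 19.7, 27.7 and 28.6 CPM, all below the basal libraries at 29.3, 29.3 and 32.8 CPM (-0.27 ± 0.40, adjusted p = 0.868). Fos had 4.64, 3.84 and 4.90 CPM, above the basal libraries at 1.52, 3.30 and 2.65 CPM (0.83 ± 0.54), and Fosl2 had 16.3, 22.1 and 15.8 CPM, above those at 15.0, 15.1 and 12.6 CPM (0.34 ± 0.34). These 3 of 8 genes had groups that did not overlap at 120 min, where 17.1% of all tested genes did, and none passed. Between 120 and 30 min on the 16-week HFD 0 of 8 genes passed, where 1.98% of all tested genes did, and DESeq2 and limma called 0. Atf3 was the 1 gene with an unadjusted p below 0.05 there (-1.28 ± 0.45, unadjusted p = 0.00738), where 16.2% of all tested genes were, and passed against replicates 1 to 3 alone (-1.86, adjusted p = 0.0055).

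The insulin response on the 16-week HFD was then set against that on chow in 1 model. The difference of log2 fold changes was negative for all 8 genes at all 4 times, although Maff at 30 min stood at -0.02 and turned to 0.12 with length and GC trends removed. None passed, where 0.00711%, 0%, 0% and 0.839% of all tested genes did at 15, 30, 60 and 120 min. The 4 times share both sets of basal libraries, so these signs are not independent of each other. Unadjusted p-values below 0.05 were found for 4, 3, 1 and 5 genes, where 6.03%, 14.4%, 12.9% and 14.3% of all tested genes had them, and DESeq2 called 0, 0, 0 and 2. Over all tested genes DESeq2 called 10, 111, 83 and 315, where edgeR called 1, 0, 0 and 118. At 120 min Junb differed by -2.19 ± 0.62 (95% interval -3.45 to -0.93, adjusted p = 0.0754), Maff by -1.93 ± 0.60 (-3.16 to -0.70, adjusted p = 0.11) and Jun by -1.73 ± 0.58 (-2.90 to -0.55, adjusted p = 0.136). Jund differed by -1.03 ± 0.34 (-1.73 to -0.34, adjusted p = 0.129) and Atf3 by -2.08 ± 0.76 (-3.62 to -0.53, adjusted p = 0.182). DESeq2 called Junb (adjusted p = 0.0274) and Maff (adjusted p = 0.0393) at that time, and Junb passed in edgeR without chow 120 min replicate 1 (-2.56, adjusted p = 0.0231). At 15 min the differences were -2.16 ± 0.80 for Fos (-3.78 to -0.54, adjusted p = 0.61), -2.02 ± 0.58 for Jun (-3.19 to -0.85, adjusted p = 0.383), -1.65 ± 0.62 for Junb (-2.90 to -0.39, adjusted p = 0.614) and -1.59 ± 0.60 for Maff (-2.81 to -0.36, adjusted p = 0.627). Fosl2 had the smallest differences of the 8 genes at 15, 60 and 120 min, between -0.26 and -0.08.

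**Figure D3:**
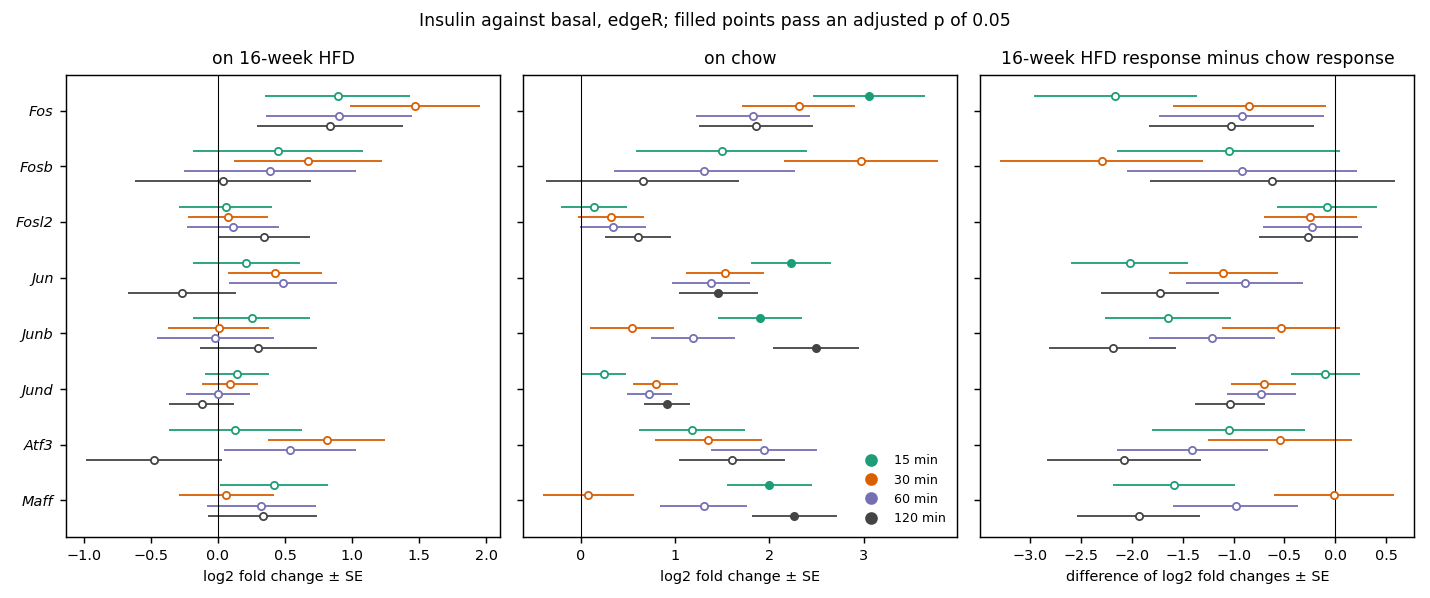
Points are log2 fold changes of insulin against basal livers with their SE, on the 16-week HFD (left) and on chow (middle), and the difference between these responses (right), with colours for the 4 times. Filled points pass an adjusted p of 0.05: 8 values on chow, none on the 16-week HFD and none of the differences.

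Without insulin the levels already differed by diet. Maff had 12.7, 8.47 and 10.9 CPM in 16-week HFD basal livers, against 2.16, 1.98 and 2.28 CPM in chow basal livers. Jun had 29.3, 29.3 and 32.8 CPM, against 10.6, 14.4 and 11.7 CPM, and Atf3 had 1.98, 1.90 and 4.76 CPM, against 0.541, 0.961 and 0.902 CPM in chow basal livers. Fosb had 0.507, 0.427 and 0.397 CPM, from 9 to 11 reads, against 0.0901, 0.0534 and 0.0531 CPM, from 1 to 4 reads. The log2 fold changes were 2.31 ± 0.45 for Maff (4.97-fold, adjusted p = 0.000166), 1.90 ± 0.56 for Atf3 (3.73-fold, adjusted p = 0.00856), 1.32 ± 0.41 for Jun (2.50-fold, adjusted p = 0.0136) and 2.55 ± 0.84 for Fosb (5.84-fold, adjusted p = 0.0188). These 4 of 8 genes were called higher, where 32.3% of all tested genes were called and 16% were called higher. All 8 genes were higher in each 16-week HFD library than in each chow library, although Jund turned to a log2 fold change of -0.02 with length and GC trends removed. Among all tested genes 48.2% had groups that did not overlap and 23.5% were apart and higher. The remaining 4 missed the threshold, with Fos at 1.52, 3.30 and 2.65 CPM, against 0.473, 1.39 and 1.33 CPM in chow basal livers (1.34 ± 0.61, adjusted p = 0.0911). Maff passed with any 1 library left out. Jun (1.22, adjusted p = 0.0549) and Atf3 (1.62, adjusted p = 0.0579) were lost without chow basal replicate 1, Atf3 also without 16-week HFD basal replicate 3 (1.33, adjusted p = 0.097), and Fosb without chow basal replicates 2 or 3 (2.44 each, adjusted p = 0.0557 and 0.0547). In this comparison 0 of 7 tested Kupffer cell and macrophage markers and 0 of 6 endothelial markers were called. Of 6 stellate cell markers 2 were higher and 1 lower, of 6 hepatocyte markers 1 was higher and 1 lower, the 1 red cell marker tested was higher, and 4 of 7 muscle markers were lower. The summed stellate markers ran from 186.7 to 410.2 CPM on the 16-week HFD and 293.2 to 301.9 CPM on chow, and the summed muscle markers from 0.397 to 0.968 and from 0.584 to 145.9 CPM, with Myh1 and Tnnt3 at 0 on the 16-week HFD. The part of these cells in the levels of the AP-1 genes was not tested.

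On the 6-week HFD Maff and Fos were higher than on chow. Maff had 8.71, 7.96 and 6.12 CPM in 6-week HFD basal livers, against 2.16, 1.98 and 2.28 CPM on chow (1.82 ± 0.45, 3.54-fold, adjusted p = 0.00658). Fos had 4.45, 3.22 and 4.84 CPM, against 0.473, 1.39 and 1.33 CPM on chow (2.08 ± 0.59, 4.22-fold, adjusted p = 0.0181). Neither pair overlapped. These were 2 of 8 genes, where 11% of all tested genes were called, and 6 of the 8 had groups that did not overlap, where 37.5% of all tested genes did. Jun had 21.6, 23.02 and 20.9 CPM, above the chow libraries but short of the threshold (0.84 ± 0.41, adjusted p = 0.198). Fos was lost without chow basal replicate 1 (1.62, adjusted p = 0.122), and Maff passed with any 1 library left out. Both HFD comparisons use the same 3 chow basal libraries, and T and B cell markers (3 of 6), muscle markers (2 of 7), stellate markers (1 of 6) and the red cell marker were also higher on the 6-week HFD. The summed T and B cell markers were 3.90 to 4.75 CPM on the 6-week HFD and 1.71 to 3.81 CPM on chow, and the part of these cells was not tested.

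After insulin the diets were compared at each time. At 15 min 0 of 8 genes differed between the 16-week HFD and chow by edgeR, where 24.4% of all tested genes did. Of the 8, 1 had an unadjusted p below 0.05, where 37.2% of all tested genes had, and DESeq2 called 0. At 30 min Maff had a lowest value of 3.69, a median of 10.8 and a highest of 17.7 CPM on the 16-week HFD, against 2.29, 2.31 and 2.18 CPM on chow (2.30 ± 0.42, adjusted p = 7.5e-05). Atf3 at 30 min was higher by 1.36 ± 0.45 (adjusted p = 0.0181) with groups that overlapped, and it was lost without chow 30 min replicates 1 or 2 or 16-week HFD 30 min replicate 1 (1.05 to 1.30, adjusted p = 0.06 to 0.0796). Those were 2 of 8 genes, where 37.3% of all tested genes were called. At 60 min only Maff was called (1.33 ± 0.42, adjusted p = 0.021, where 22.4% of all tested genes were called), and it was lost without chow 60 min replicate 2 (1.02, adjusted p = 0.118) or 16-week HFD 60 min replicate 1 (1.06, adjusted p = 0.0948).

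At 120 min after insulin Junb and Jund were lower on the 16-week HFD than on chow. Junb had 25.5, 28.3 and 28.3 CPM on the 16-week HFD, against 30.3, 121 and 61.6 CPM on chow (-1.37 ± 0.44, adjusted p = 0.0177). Jund had 48.9, 59.2 and 57.2 CPM, against 61.5, 103 and 97.6 CPM on chow (-0.66 ± 0.24, adjusted p = 0.0371). These were 2 of 8 genes, where 28.2% of all tested genes were called. Neither pair overlapped, where 46.9% of all tested genes had groups that did not. Maff did not pass at that time, with 12.8, 9.62 and 18.0 CPM on the 16-week HFD, against 9.86, 12.5 and 8.57 CPM on chow (0.38 ± 0.41, adjusted p = 0.516). Junb was lost without chow 120 min replicate 2 (-0.74, adjusted p = 0.246) or 16-week HFD 120 min replicates 1 or 2 (-1.32 and -1.40, adjusted p = 0.059 and 0.053). Jund was lost without chow 120 min replicates 2 or 3 or any 1 of the 16-week HFD 120 min libraries (-0.72 to -0.53, adjusted p = 0.0647 to 0.159). Between the diets 24.4%, 37.3%, 22.4% and 28.2% of all tested genes were called at 15, 30, 60 and 120 min, in either direction. Macrophage markers were higher in 3, 6, 1 and 5 of 7 genes at these times on the 16-week HFD. Their summed level at 120 min was 338.5 to 892.2 CPM on the 16-week HFD and 198.9 to 225.6 CPM on chow. Endothelial markers were higher in 1, 4, 2 and 3 of 6 genes, and stellate markers in 3, 4, 3 and 3 of 6. Hepatocyte markers were lower in 1, 3, 2 and 2 of 6 and higher in 1, 1, 1 and 0, neutrophil markers were higher in 2 of 3 at 30 min, and T and B cell markers in 1 and 2 of 6 at 15 and 30 min. The red cell marker was higher at all 4 times, and 1 of 4 cholangiocyte markers was lower at 120 min. The part of these cells in the diet differences of the AP-1 genes after insulin was not tested.

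Metformin in the drinking water was followed by no call among the 8 genes on any diet. The share of all tested genes called by edgeR was 28.4% on the 16-week HFD, 3.17% on the 6-week HFD and 1.94% on chow. Unadjusted p-values below 0.05 were found for 0, 2 and 0 genes in this order of diets, where 38.9%, 20.5% and 16% of all tested genes had them, and DESeq2 called 0 on each. On the 6-week HFD Fos had 2.13, 0.990 and 2.11 CPM with metformin, against 4.45, 3.22 and 4.84 CPM in basal livers. The groups were apart, the log2 fold change was -1.25 ± 0.56 and the adjusted p was 0.198. Groups that do not overlap were found for 3 of 8 genes there, where 32.6% of all tested genes had them. Fosl2 had 9.07, 5.89 and 8.14 CPM with metformin on the 6-week HFD, against 11.9, 12.2 and 13.96 CPM (-0.72 ± 0.35, adjusted p = 0.24). On the 16-week HFD the metformin libraries spread widely, with Fos at 0.867, 9.73 and 2.65 CPM, against 1.52, 3.30 and 2.65 CPM in basal livers. Junb there had 12.7, 57.5 and 29.7 CPM, against 20.0, 30.4 and 16.2 CPM. Without metformin replicate 2, which was the highest for Fos, Fosl2, Jun and Junb, Fosl2 passed (-1.14, adjusted p = 0.0259). On chow Fos had 0.697, 0.749 and 0.641 CPM with metformin, within the basal range of 0.473 to 1.39 CPM. The deviation of genes fell with transcript length in all 9 metformin libraries (Spearman correlation -0.61 to -0.13), and it ran from -0.22 to 0.29 in the other 36, so library composition and metformin cannot be told apart.

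**Figure D4:**
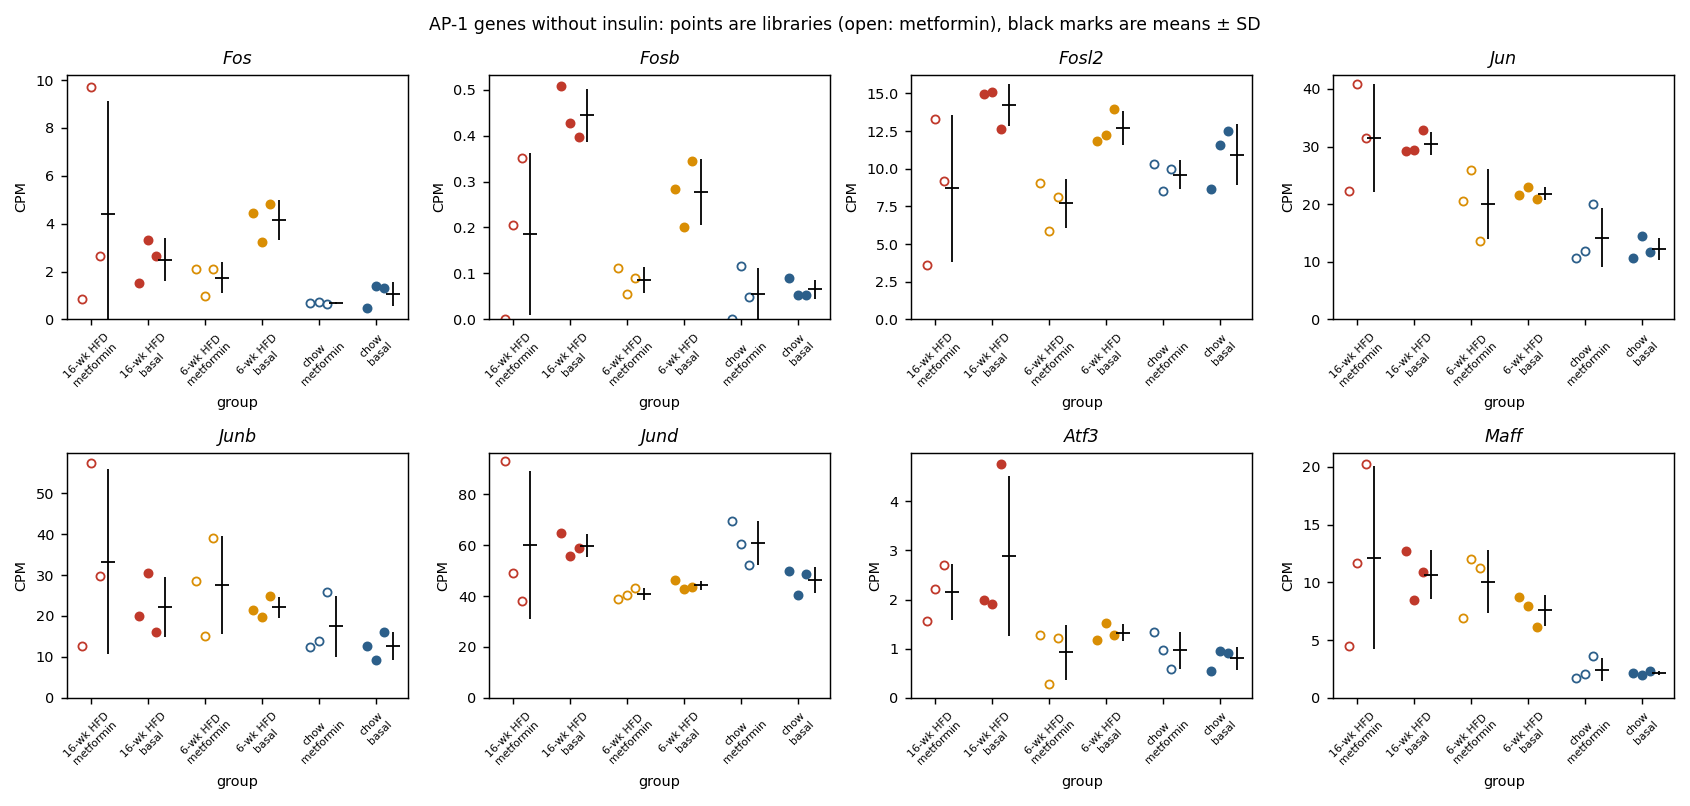
Each panel shows the CPM of 1 gene in livers without insulin, with metformin (open points) left of basal (filled points) for the 16-week HFD, the 6-week HFD and chow. Black marks are means ± SD of 3 libraries, cut at 0 on the axis, and Maff stands at 6.12 CPM or more in all HFD basal libraries and at 2.28 CPM or less on chow.

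Across the 14 groups each gene had its own order of levels. Fos (8.20 ± 3.88 CPM) and Jun (57.2 ± 38.4 CPM) were highest at 15 min on chow, Junb (71.0 ± 46.1 CPM) and Jund (87.3 ± 22.5 CPM) at 120 min on chow (SD, n = 3 each). Atf3 and Fosb were highest at 30 min on the 16-week HFD (5.05 and 0.71 CPM, n = 6), Maff at 15 min (14.2 CPM) and Fosl2 at 120 min (18.1 CPM) on that diet. Chow basal livers were the lowest group for Jun, Junb, Atf3 and Maff, chow metformin livers for Fos and Fosb, and 6-week HFD metformin livers for Fosl2 and Jund. The ratio of the highest to the lowest group mean was 11.8 for Fos, 6.65 for Maff, 6.31 for Atf3, 5.63 for Junb, 4.67 for Jun, 2.35 for Fosl2 and 2.13 for Jund, and for Fosb it was 12.9 on 0 to 39 reads per library. Many neighbours in these orders overlapped, as the values above show.

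Over the 14 group means of log2 CPM, Fos and Jun had the highest Pearson correlation of any pair of the 8 genes (0.90), and Jund with Maff (-0.09) and Fosb with Junb (-0.09) the lowest. The group means share library preparation and depth, and these values are descriptions. Among 11959 tested genes with a mean of at least 1 CPM, the 5 most like Fos were Zc3h12a (0.81), an RNase of inflammatory mRNAs, Loxl4 (0.79), Ets2 (0.79), an ETS transcription factor, Slc20a1 (0.79) and Midn (0.77). The 5 most like Junb were Socs3 (0.84), a feedback inhibitor of cytokine signalling, Ripk1 (0.84), Tle2 (0.83), Slc10a3 (0.81) and Nr1i2 (0.81), the pregnane X receptor. Atf3 was most like Ets2 (0.90), Mxd1 (0.88), a partner of Max, Cdc42ep1 (0.86), P2ry6 (0.86) and Midn (0.86). Fosl2 was most like Polr2a (0.98), the largest subunit of RNA polymerase II, Dip2b (0.98), Aff1 (0.97), Podxl (0.96) and Man2a2 (0.95). Fosl2 has the most exon bases of the AP-1 genes (5863), and its lowest group means were those with metformin, whose libraries fell with transcript length. The part of this trend in its correlations was not tested.

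Other genes of the pathway were read from lists. Of 19 tested bZIP partners, 2 rose on chow at 15 min, 0 at 30 min, 2 at 60 min and 3 at 120 min, and none fell. Of all tested genes 1.13%, 0.0711%, 1.39% and 5.08% were called at these times. The small Maf gene Mafk rose by 0.78 ± 0.16 at 15 min (adjusted p = 0.00715) and 0.80 ± 0.16 at 120 min (adjusted p = 0.00144), and Mafg by 0.51 ± 0.13 and 0.47 ± 0.13. These are the closest relatives of Maff. Atf4, a factor of the integrated stress response, rose at 60 min, with means of 104.5 CPM at 60 min and 67.1 CPM in basal livers (0.64 ± 0.14, adjusted p = 0.0111). Mafk was also the bZIP partner whose response differed by diet at 120 min (-1.04 ± 0.22, adjusted p = 0.0152), where 0.839% of all tested genes were called. In basal livers 5 of the 19 were higher and 3 lower on the 16-week HFD than on chow, where 32.3% of all tested genes were called, led by Nfe2l1 (0.50 ± 0.10), Mafk (0.79 ± 0.16) and Crem (-0.76 ± 0.15).

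Of 6 serum response and ternary complex factors, which sit at the Fos promoter, only Srf rose on chow, at 60 min (0.57 ± 0.14, adjusted p = 0.0323). None of 23 genes of the MAP kinase cascade, which activates those factors, was called on chow at any insulin time. Of all tested genes 1.13%, 0.0711%, 1.39% and 5.08% were called on chow at 15, 30, 60 and 120 min. On the 16-week HFD at 30 min Rps6ka5 (0.78 ± 0.23) was higher and Map2k2 (-0.44 ± 0.10) was lower than in basal livers, where 3.55% of all tested genes were called. Between basal livers 6 of the 23 were higher and 8 lower on the 16-week HFD than on chow, where 32.3% of all tested genes were called, among them Braf (-0.83 ± 0.12) and Map2k3 (0.81 ± 0.13).

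Of 5 genes for proteins that bind AU-rich elements and speed or set the decay of early mRNAs, Zfp36l2 (1.24 ± 0.23, adjusted p = 0.0048) and Zfp36l1 (0.94 ± 0.19, adjusted p = 0.00717) rose at 15 min on chow, and Zfp36 (1.13 ± 0.29, adjusted p = 0.0167) and Zfp36l1 (0.66 ± 0.19) at 120 min. Of all tested genes 1.13% and 5.08% were called at these times. Of 11 tested genes known as AP-1 targets in cultured cells, Plau, encoding urokinase, fell at 120 min on chow (-1.33 ± 0.38, adjusted p = 0.0336). In basal livers 6 of the 11 were higher on the 16-week HFD than on chow, among them Ccnd1, encoding cyclin D1 (2.55 ± 0.39, adjusted p = 5.51e-06), and Ccl2 (2.40 ± 0.73), and Ccnd1 was also higher on the 6-week HFD (1.93 ± 0.38, adjusted p = 0.000837). These shares stand beside 32.3% and 11% of all tested genes called in the same comparisons.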

How the data were processed

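PolyA RNA libraries of mouse liver (TruSeq RNA v1, read in pairs of 40 to 50 bases) were aligned and counted per gene on mm9 by the authors, with TopHat 1.4.0 and HTSeq (version not given in the sources used here) per the submitters' processing notes. The raw read counts are as the authors deposited them. The deposited normalized counts are signal values that the authors normalized with CQN and DESeq2 1.0.18 before deposition, and they served only as an alternative. CQN, conditional quantile normalization, is a correction for trends with GC content and length. Limma on these values therefore differs from the main fit in normalization as well as in the test. Groups comprise 3 or more mice by the submitters' account, but no label ties a library to a mouse, so p-values measure the spread between libraries. No 2 libraries of a group agreed in more than 3.26% of their detected gene counts.

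Genes passing edgeR's filterByExpr (minimum count 10) in all 45 libraries were fitted together, with 1 coefficient per group and TMM scaling (edgeR 4.0.16, R 4.3.3), and 23 comparisons were tested by the quasi-likelihood F test, with Benjamini-Hochberg adjustment over all tested genes and a threshold of 0.05. CPM use TMM-scaled library sizes. SEs were taken from the fold change and its F statistic. On simulated counts for insulin at 15 min on chow, 79 of 100 genes changed 2-fold and 96 of 100 changed 4-fold were recovered, and 7 unchanged genes were called. The changed genes were drawn from those above 1 CPM on average, with negative binomial noise, so these rates need not hold for the AP-1 genes. Every member is named. From each other list, up to 3 called genes with the smallest adjusted p are named per comparison, and the 5 genes most like Fos, Junb, Fosl2 and Atf3 over group means; a few genes of these lists are not reported here. The members and lists were chosen with earlier results of these data known. Exon lengths are of mm9, and motifs were searched with Python 3.11.15. Alternatives were DESeq2 1.42.0, limma 3.58.1 on log2 of the deposited values plus a pseudocount of 1, other scaling and filters, removal of length and GC trends (known for 90.6% of genes), fits of only the groups compared, and each library left out.

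The main fit did not pair libraries by replicate number, and the labels do not say whether these numbers pair mice. A block of replicate number was fitted for every comparison as an alternative. All 3 correlations of deviations were 0.12 or more only for metformin against basal on the 6-week HFD (0.41, 0.16 and 0.30) and the 16-week HFD (0.24, 0.15 and 0.12). The block changed no call in these 2 comparisons. For the 6-week HFD against chow the correlations were 0.52, -0.1 and 0.41.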

Additional observations from a re-analysis of the deposited data

Results flagged for a closer look

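Jun at 120 min after insulin stands out because its insulin libraries lay on opposite sides of the basal libraries on the 2 diets. On the 16-week HFD all 3 insulin libraries (19.7, 27.7 and 28.6 CPM) lay below all 3 basal libraries (29.3, 29.3 and 32.8 CPM). On chow all 3 insulin libraries (21.6, 47.4 and 31.7 CPM) lay above all 3 basal libraries (10.6, 14.4 and 11.7 CPM). The difference of the log2 fold changes was -1.73 ± 0.58 in edgeR, with an unadjusted p of 0.00511 and an adjusted p of 0.136. At 120 min the levels on the 2 diets overlapped. On the 16-week HFD alone Jun did not pass (-0.27 ± 0.40, adjusted p = 0.868), and its call on chow (1.46 ± 0.42, adjusted p = 0.0317) was lost without any 1 of 5 of the 6 libraries compared.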

How the results depend on the processing

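Counts of called AP-1 genes moved by over 1.5 times under these alternatives. DESeq2 called 1 at 30 and 1 at 60 min on chow, 1 at 30 min on the 16-week HFD and 2 for the diet difference at 120 min. Over all genes DESeq2 called 62, 300, 985 and 315 in these comparisons, against 10, 195, 500 and 118 in the main fit. Fits of only the groups compared called 2 at 30 and 3 at 60 min on chow, 3 for the diet difference at 120 min, 1 between diets at 15 min and 1 at 30 min, 4 for the 6-week HFD against chow and 1 for 120 against 30 min on chow. Over all genes those fits called 61 at 30 min on chow, against 10 in the main fit. For the diet difference at 120 min this was 217 against 118, and for 120 against 30 min on chow 148 against 228. In the other comparisons just named, calls over all genes moved by no more than 1.5 times. Limma on the deposited values called 1 at 60 min and 1 for 120 against 30 min on chow, where Junb was lost. Smaller moves were 3 at 15 min on chow by limma, which lost Junb, 5 to 6 at 120 min on chow by limma, DESeq2 and the fit of only the groups compared, 6 for the 16-week HFD against chow in basal livers in that fit, and 3 between diets at 30 min with trends removed. With replicates 1 to 3 alone at 30 min on the 16-week HFD, 1 was called at that time and 1 for 120 against 30 min, as with the replicate block. Over all genes, replicates 1 to 3 alone gave 1744 and 1274 calls, against 500 and 279 with all 6. That block also rests on replicates 1 to 3 there, since the other replicates share their number with no other group. Whether replicate numbers pair mice is not known, and the block otherwise moved no count.

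With 1 library left out, counts ran from 0 to 4 at 15 min and 2 to 4 at 120 min on chow, 0 to 1 for the diet difference at 120 min, 2 to 4 for the 16-week HFD against chow in basal livers, 0 to 1, 1 to 2, 0 to 1 and 0 to 2 at the 4 insulin times, 1 to 2 for the 6-week HFD, 1 to 2 for 120 against 30 min on chow and 0 to 1 for metformin on the 16-week HFD, and were 0 in every other comparison. Calls over all genes with 1 library left out are not given here, so these ranges can also hold a general shift.

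The diet difference at 30 min changed sign for Maff (0.12 with length and GC trends removed, 0.43 with replicates 1 to 3 alone, 0.42 with the block), Atf3 (0.035 and 0.13 in the last 2) and Fosl2 (0.076 with the block). With 1 library left out it ran from -1.46 to 0.65 for Fosb, -0.19 to 0.072 for Fosl2 and -0.24 to 0.087 for Jund at 15 min, -0.46 to 0.26 for Fosl2, -0.86 to 0.022 for Atf3 and -0.19 to 0.17 for Maff at 30 min, and -0.56 to 0.14 at 60 min and -0.59 to 0.26 at 120 min for Fosl2. Causes were not tested. RLE scaling changed no call or sign of any AP-1 gene.

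Over all genes, metformin on the 16-week HFD called 3992, against 2327 with trends removed and 14 in the fit of its groups alone. Insulin at 30 min on the 16-week HFD called 500. Limma on the deposited values called 0 there, the fit of its groups alone 28 and replicates 1 to 3 alone 1744. The deposited values carry the authors' CQN step, and its part in the limma count was not tested. Fosb and Fosl1 are limited by depth, at no more than 39 and 2 reads per library.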
